A study of Rattus norvegicus with 17 samples.

Results

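Osteopontin (Spp1, ENSRNOG00000043451) and fibronectin (Fn1, ENSRNOG00000014288) are secreted matrix proteins that bind integrins, and their RNA was followed here in rat lung after injury with bleomycin. They are 2 of the 32753 genes in the deposited table, were chosen by these Ensembl gene IDs, and both passed the expression filter that left 15000 genes for testing. The table holds IDs without names and the available RefSeq gene table for rat has no Ensembl IDs, so the pairing of each ID with its symbol was taken from the selection and was not checked. The libraries came from lung parenchyma of Wistar rats of the strain RjHan:WI. The control group received NaCl (6 libraries), the bleomycin group bleomycin at 1 mg per kg (5 libraries), and the group called treated below bleomycin at 1 mg per kg together with BI1015550 at 2.5 mg per kg (6 libraries). Bleomycin is a cytotoxic antibiotic used to produce lung fibrosis in rodents, and BI1015550 is described by the series as a therapeutic inhibitor of PDE4B, a phosphodiesterase that breaks down cyclic AMP. The labels give no age, sex, route, sampling time or vehicle for the compound, and there was no group given the compound without bleomycin. Libraries carry the numbers of their titles. These pass from 9 to 11 in the bleomycin group, and the labels do not say why.

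Osteopontin is a phosphorylated glycoprotein of the SIBLING family that carries an Arg-Gly-Asp motif for αv integrins and also binds CD44. In fibrotic lung it is best known as a product of macrophages. Fibronectin is a large dimeric glycoprotein that cells assemble into fibrils through integrin α5β1, on which collagen is then deposited. In injured lung it is made by fibroblasts, macrophages and epithelium, and it also reaches the tissue as a plasma protein made by hepatocytes, a supply that lung RNA does not record. RefSeq (assembly GRCr8) lists 3 transcripts for Spp1 and 12 for Fn1, and the gene counts do not separate them. Fibronectin is known for its alternatively spliced forms. In that assembly Spp1 stands between Pkd2 and the other SIBLING genes Mepe, Ibsp, Dmp1 and Dspp, and no listed gene overlaps Spp1 or Fn1.

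Only the bases upstream of the Spp1 start are shown, since the available set of upstream sequences held none for Fn1. They come from RefSeq for GRCr8, chr14:5619805-5620054, minus strand, and are written 5′ to 3′ and end at the base before the start site. Capitals mark matches to the motifs searched.
Spp1 upstream: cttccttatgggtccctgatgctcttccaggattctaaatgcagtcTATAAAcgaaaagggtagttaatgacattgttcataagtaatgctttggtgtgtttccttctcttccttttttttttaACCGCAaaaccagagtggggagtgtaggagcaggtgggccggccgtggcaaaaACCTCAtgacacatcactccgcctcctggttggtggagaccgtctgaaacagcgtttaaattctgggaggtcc
Of 8 motifs searched on both strands, 2 matched these 250 bases. The TATA letters TATAAA began at position -204, and the RUNX letters TGNGGT matched on the opposite strand at -126 and -73. The same letters occur in 12.9% and 41% of the 33469 upstream windows of that length. The full cyclic AMP response element TGACGTCA (1.59% of windows), its short form TGACG (18.2%) and the AP-1 letters TGANTCA (6.34%) were not found here. Nor were the GC box GGGCGG (30.5%), CCAAT (34%) or CACGTG (5.59%), the only E-box letters searched. The short form overlaps the full element. A match is only a run of letters, and nothing here measured binding.

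Library totals ranged from 14609389 to 18462105 counts and were lower in treated libraries (15040122 ± 494616, SD, n = 6) than in controls (16867155 ± 866040, SD, n = 6). Levels are given as CPM, counts scaled to a common library size with a correction for composition. A principal component analysis of log2 CPM put 35.8% of the variance on its first component, where the 3 groups did not overlap. The bleomycin libraries had the widest range on it, from 25.5 to 68.2, with library 7 at the upper end. The labels do not say whether each library came from its own animal, so every p-value here refers to variation among libraries, which may be partly technical. Markers of lung cell types could not be looked up without gene names, so neither the labelled tissue nor the cell makeup of the libraries was checked.

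Bleomycin raised both genes. Each was called higher than control by edgeR's quasi-likelihood test (adjusted p below 0.05 over all tested genes), where 20.2% of the 15000 tested genes were called higher and 38.3% were called in either direction. Of the genes called, 52.8% were higher, or 43.1% under total count scaling, where both members were still called higher. In bulk tissue, more cells that make a transcript and more transcript per cell cannot be told apart.

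In control lungs Spp1 had 92 to 362 counts per library. Its level there ranged from 4.81 CPM through a median of 10.3 to 22.02 CPM. In bleomycin libraries 7, 8, 9, 11 and 12 it stood at 457, 71.1, 299, 71.6 and 154 CPM. Every bleomycin library lay above every control, and libraries 7 and 9 stood well above libraries 8 and 11, which were nearly equal. The mean rose from 12.2 ± 7.41 CPM (SD, n = 6) to 211 ± 166 CPM (SD, n = 5), a 17.3-fold rise with a 95% interval from 8.17-fold to 36.5-fold. On the log2 scale the change was 4.11 (SE 0.513, edgeR adjusted p = 1.83e-05). Counting Spp1 itself, 26 tested genes rose by as large a factor, or 0.173% of all tested. Non-overlapping ranges with bleomycin higher were found for 9.6% of tested genes.

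Fn1 took 0.118% to 0.177% of all counts in control lungs. Its control level ranged from 1169 CPM through a median of 1506 to 1736 CPM. With bleomycin it stood at 8946, 4260, 5045, 2949 and 5292 CPM in libraries 7, 8, 9, 11 and 12. Library 7 was again the highest, at 0.858% of its counts, library 11 was the lowest, and no bleomycin library reached down to the controls. The mean rose from 1481 ± 242 CPM (SD, n = 6) to 5298 ± 2235 CPM (SD, n = 5), a 3.58-fold rise with a 95% interval from 2.65-fold to 4.83-fold. The log2 change was 1.84 (SE 0.206, edgeR adjusted p = 6.93e-06). Its fold was smaller than that of Spp1 but its SE was also smaller, and 256 tested genes (1.71%) rose by at least as much.

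**Figure D1:**
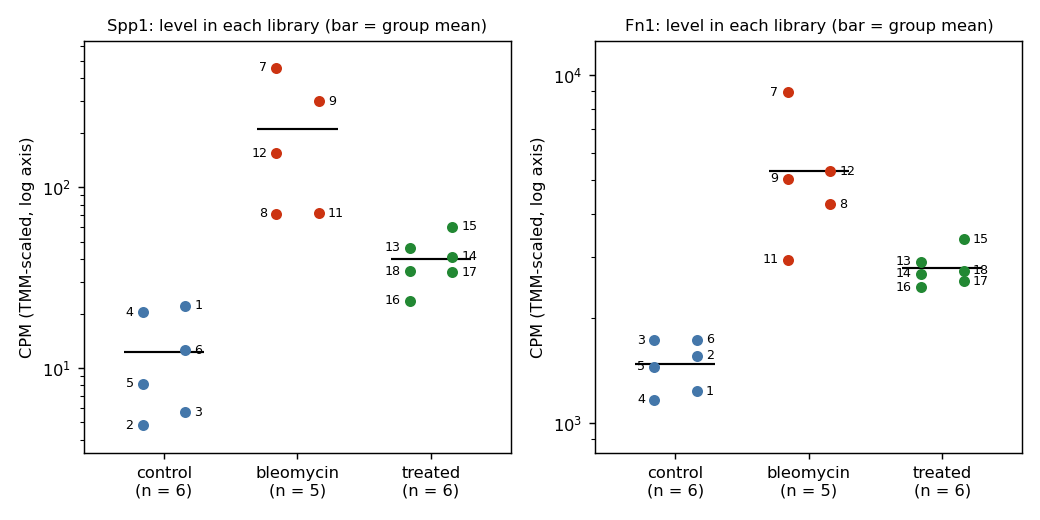
Level of Spp1 (left) and Fn1 (right) in each of the 17 libraries, in CPM on a log axis, with points numbered by library and a bar at each group mean. Spp1 is separated between all 3 groups, while for Fn1 treated library 15 (3378 CPM) lies above bleomycin library 11 (2949 CPM).

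Library 7 was highest for both genes and also lay farthest along the first principal component. Without it the log2 change from control was 3.61 for Spp1 (edgeR adjusted p = 4.02e-05) and 1.57 for Fn1 (edgeR adjusted p = 5.22e-06).

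Lungs given bleomycin and BI1015550 had less of both transcripts than lungs given bleomycin alone. Both genes were called lower, a call made for 15.7% of tested genes (27.8% in either direction). Under total count scaling 55.7% of the genes called in this comparison were higher, against 43.6% with the scaling used here, but both members stayed lower.

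Spp1 in treated libraries ranged from 23.5 CPM through a median of 37.6 to 60.6 CPM. The highest of them, library 15, fell short of the lowest bleomycin library, number 8 at 71.1 CPM, so the groups did not overlap but came close. Non-overlapping ranges with treated lungs lower were found for 8.58% of tested genes. Mean Spp1 was 39.9 ± 12.7 CPM (SD, n = 6) in treated lungs, 5.28-fold below bleomycin with a 95% interval from 2.64-fold to 10.6-fold. The log2 change was -2.40 (SE 0.475, edgeR adjusted p = 0.00247), and 39 tested genes (0.26%) were lower by at least that factor. Without bleomycin library 7 the change was -1.90 (edgeR adjusted p = 0.00797).

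Fn1 in treated libraries ranged from 2456.5 CPM through a median of 2718 to 3378 CPM. These levels were close together, and library 15 was the only treated library above the lowest bleomycin library, number 11. The treated mean of 2790 ± 327 CPM (SD, n = 6) was 1.9-fold below bleomycin, with a 95% interval from 1.41-fold to 2.55-fold. On the log2 scale Fn1 changed by -0.93 (SE 0.203, edgeR adjusted p = 0.00412), and 510 tested genes (3.4%) were lower by at least as much. The change was -0.65 without bleomycin library 7 (edgeR adjusted p = 0.00987).

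Both transcripts remained above the control level in treated lungs. Both genes were called higher than control, a call made for 3.92% of tested genes (8.39% in either direction), and no treated library of either gene reached down to a control. Such ranges, with treated lungs higher, were found for 2.35% of tested genes. This comparison uses the same control libraries as the first one and the same treated libraries as the second.

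For Fn1 the difference from control was 1.88-fold, with a 95% interval from 1.42-fold to 2.5-fold, and a log2 change of 0.91 (SE 0.195, edgeR adjusted p = 0.00801). It passed under all 25 alternatives run, with a largest adjusted p of 0.0236. For Spp1 the difference was larger and less certain, at 3.27-fold with a 95% interval from 1.65-fold to 6.49-fold. Its log2 change was 1.71 (SE 0.47, edgeR adjusted p = 0.0319). The highest control, library 1 at 22.02 CPM, and the lowest treated library, number 16 at 23.5 CPM, were almost level. The Spp1 call was lost without control library 2 (edgeR adjusted p = 0.0708), 3 (0.0706), 5 (0.0583) or 6 (0.0582), and without treated library 13 (0.0549), 14 (0.0527) or 15 (0.0717). It was lost too without treated libraries 13 and 17 together (0.0775). The call was kept in the other 17 alternatives, which include the fits without a bleomycin library, a group not compared here. Among single control and treated libraries, it was kept without control library 1 or 4 and without treated library 16, 17 or 18. For Spp1 the adjusted p was 0.00876 when edgeR fitted only these 2 groups and 0.00793 with the DESeq2 test. With limma voom using quality weights for libraries it was 0.0043. The log2 change stayed between 1.54 and 2.13 under all 25 alternatives.

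**Figure D2:**
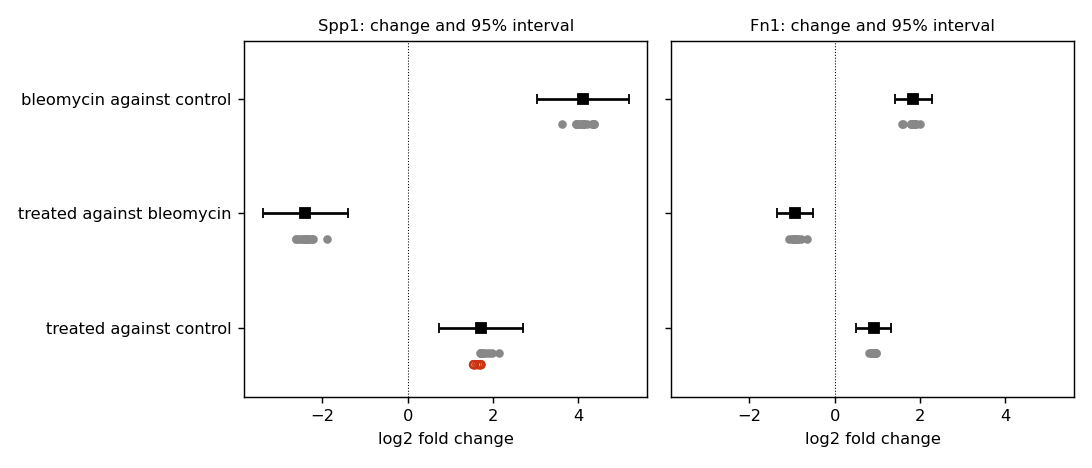
Log2 fold change of Spp1 (left) and Fn1 (right) in the 3 comparisons, with black squares and 95% intervals for the values reported and grey points for the 25 alternatives of each. Open red circles mark the alternatives whose adjusted p was 0.05 or more, all 8 of them for Spp1 in treated against control.

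**Figure D3:**
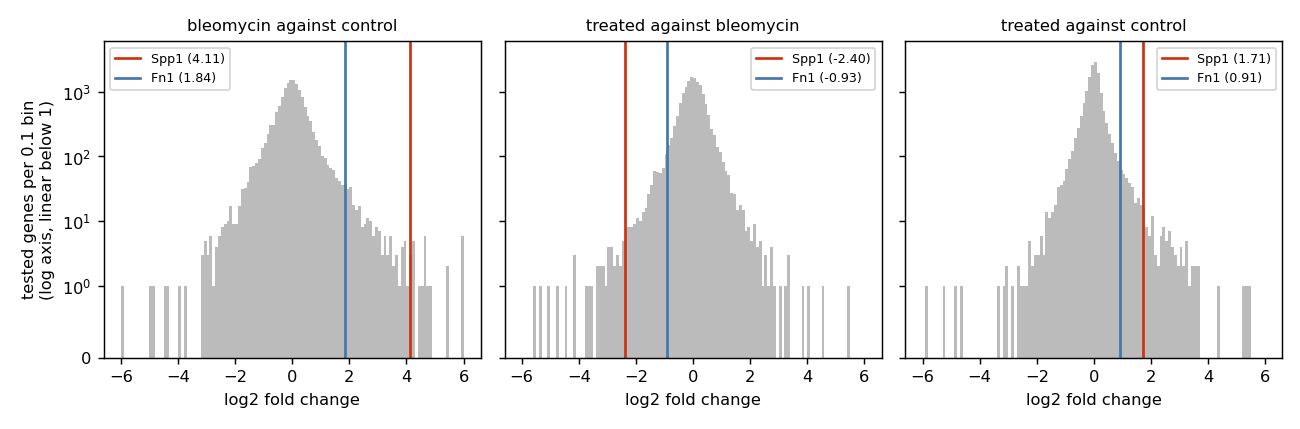
Number of tested genes by log2 fold change in bins of 0.1 (log axis, values beyond 6 in the last bin), for each comparison, with vertical lines at Spp1 (red) and Fn1 (blue). Spp1 lies far out in the tail for bleomycin against control at 4.11, and Fn1 lies nearer to the bulk in every comparison.

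Spp1 and Fn1 changed by different factors in 2 of the 3 comparisons. Their ratio within a library was used to compare them, since library scaling cancels in it. The table gives no gene lengths, so the ratio itself is not a ratio of transcript numbers, but length cancels when it is compared between groups. In controls there were 56.1 to 325 Fn1 counts for each Spp1 count, with a median of 158. With bleomycin there were 19.6, 59.95, 16.9, 41.2 and 34.3 in libraries 7, 8, 9, 11 and 12, and in treated lungs 55.8 to 104.6 with a median of 70.5.

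The log2 ratio of Spp1 to Fn1 averaged -7.14 ± 1.11 in the control group (SD, n = 6), -4.95 ± 0.759 after bleomycin (SD, n = 5) and -6.18 ± 0.32 for treated lungs (SD, n = 6). Bleomycin lungs exceeded controls by 2.19 in this ratio, so Spp1 rose 4.56-fold more than Fn1 (two-sided exact permutation test, p = 0.013, adjusted p = 0.0195 over 3 comparisons). From bleomycin to treated lungs it changed by -1.23, so Spp1 was lower by a further 2.35-fold relative to Fn1 (exact permutation test, p = 0.00433, adjusted p = 0.013). Between treated and control lungs the difference of 0.96 did not pass (exact permutation test, p = 0.0779, adjusted p = 0.0779), and it does not show that the 2 genes changed alike there. The smallest p these designs allow is 0.00216. Ranges overlapped in all 3 comparisons, since control libraries 1 and 4 had ratios (-5.81 and -5.85) like those of bleomycin library 8 (-5.91) and treated library 15 (-5.80). Without control library 1 or 4 the treated and control ratios differed by 1.22 (exact permutation test, adjusted p = 0.0238) or 1.21 (exact permutation test, adjusted p = 0.0281).

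**Figure D4:**
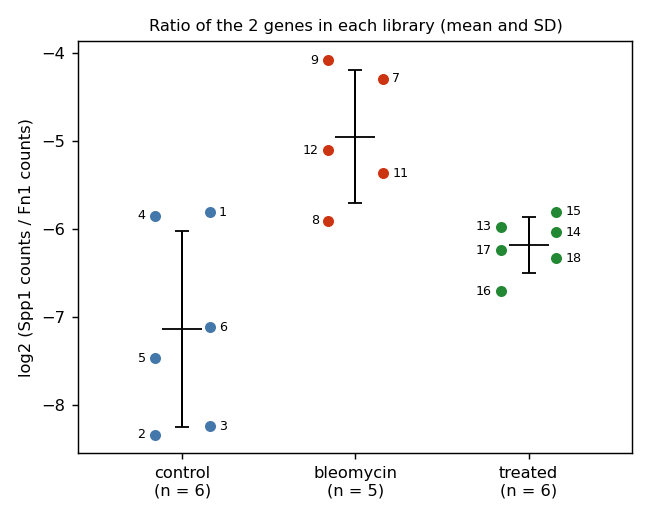
Log2 ratio of Spp1 to Fn1 counts in each library, with the mean and SD of each group. Bleomycin libraries average -4.95 and treated libraries -6.18, and the controls spread from -8.34 to -5.81.

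Spp1 varied more between libraries of 1 group than Fn1 did. Its coefficient of variation was 60.6% in controls, 78.9% with bleomycin and 31.9% in treated lungs, against 16.4%, 42.2% and 11.7% for Fn1. Counting error was at most 10.4% for Spp1, in the control library with 92 counts, and at most 0.729% for Fn1. These figures cover counting alone and no other technical source. The biological coefficient of variation fitted by edgeR was 53% for Spp1, where the trend for its abundance was 15.7%, and only 2.37% of tested genes had a higher value. For Fn1 it was 23.4% against a trend of 17.6%, and 24.8% of tested genes had a higher value.

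Within groups the 2 genes were compared library by library. In treated lungs, libraries with more Spp1 also had more Fn1, from library 16, lowest in both, to library 15, highest in both. The correlation of log2 CPM was r = 0.926 (exact permutation p = 0.0111, adjusted p = 0.0222 over 2 groups, n = 6), with Spearman's rho = 0.943 (exact permutation p = 0.0167, adjusted p = 0.0334). Without libraries 15 and 16, the farthest from the median of Spp1, r was 0.766 (exact permutation p = 0.208, n = 4). It kept its sign, and a p over so few libraries says little about whether the relation depends on those left out. In controls r was -0.734 (exact permutation p = 0.118, n = 6) and rho = -0.543 (exact permutation p = 0.297), which did not pass. Control libraries 1 and 4 held the most Spp1 (22.02 and 20.3 CPM) and the least Fn1 (1235 and 1169 CPM). They also lay nearest to the bleomycin libraries among controls on the first principal component, at -25.7 and -30.2. In the bleomycin group library 7 was highest in both genes and libraries 8 and 11 were the lowest in both. No correlation was computed for this group of 5 libraries, since only the full groups of 6 were tested. The r over 4 treated libraries served only as a check on the r over 6. The difference between the groups' correlations was not tested.

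**Figure D5:**
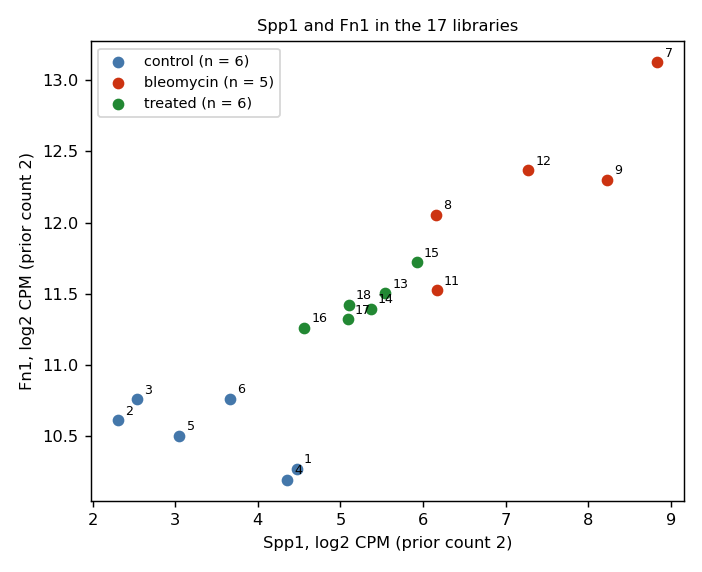
Log2 CPM of Spp1 against Fn1 in the 17 libraries, coloured by group and numbered. Treated libraries run upward from 16 to 15, while control libraries 1 and 4 sit at high Spp1 and low Fn1 for their group.

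Genes whose log2 CPM over the 17 libraries was most like each member were taken from those with a mean of at least 5 CPM, as a description. Spp1 was most like ENSRNOG00000027125 (r = 0.953), which differed much less in size, at 49.2 ± 5.43 CPM in the control group (SD, n = 6), 75.8 ± 10.4 CPM after bleomycin (SD, n = 5) and 60.0 ± 5.1 CPM for treated lungs (SD, n = 6). Fn1 was most like ENSRNOG00000029212 (r = 0.985), at 43.5 ± 9.73, 263 ± 160 and 113 ± 19.5 CPM in the same order. The most opposite patterns were those of ENSRNOG00000013474 for Spp1 (r = -0.949), at 85.2 ± 22.1, 40.6 ± 8.14 and 58.75 ± 10.6 CPM, and of ENSRNOG00000055078 for Fn1 (r = -0.976), at 608 ± 72.2, 223 ± 60.6 and 359 ± 40.1 CPM. Among 11724 genes, Fn1 stood at place 113 by likeness to Spp1, and Spp1 at place 100 by likeness to Fn1. Each of the 4 genes was called in bleomycin against control (38.3% of tested genes called) and in treated against bleomycin (27.8%). They were picked for their pattern over these same libraries, so the calls followed largely from the choice. In treated against control ENSRNOG00000027125 (edgeR adjusted p = 0.0614) and ENSRNOG00000013474 (edgeR adjusted p = 0.0524) did not pass. A correlation over all libraries therefore includes these differences between groups.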

How the data were processed

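Read counts per Ensembl rat gene, as whole numbers, were deposited by the authors in 1 table for 17 TruSeq mRNA libraries. The submitters' processing notes list featureCounts 1.5.1, RSEM 1.3.0, STAR 2.5.2, bcl2fastq 2.20.0.422 and the build Rnor_6.0 beside human build names, with no role for any. The sources used here do not give the annotation, strand setting or filters, so reads of near-identical or overlapping genes may have been shared or dropped.

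Counts were fitted in R 4.3.3 with edgeR 4.0.16 (filterByExpr by group, trimmed-mean scaling, quasi-likelihood F test, all 3 groups in 1 fit), with Benjamini-Hochberg adjustment over 15000 genes. These hold 99.927% of counts. The SE is the log2 change divided by the square root of F. Log2 CPM used a prior count of 2, and log2 ratios 0.5 added to each count. Ratios were compared by exact permutation. The fit was tested on simulated data with known changes. Over the 3 comparisons it called 46.3% to 55.2% of genes changed 1.5-fold and 74.6% to 85.1% of those changed 2-fold. For 4-fold changes the share was 93.9% to 98.5%. False calls made up 1.94% to 6.25% of the genes called. Each simulation changed only 66 or 67 of 15000 genes at each fold, far fewer than were called in the data. The share of false calls when changes are as widespread as in the data was not tested.

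Alternatives were other scalings, no filter, DESeq2 1.42.0, limma 3.58.1 voom with quality weights for libraries, fits of 2 groups, and libraries left out. The genes named were the members and, for each, the gene with the highest and the lowest correlation. The members and lists were chosen with earlier results of these data known. Lists of integrins, matrix partners and cell markers were not used, since the available gene table had no Ensembl IDs to pair with symbols. Of 12 groups of library values scanned for a library far from the rest, 0 held one. The scan flagged only a gap above 0.71 of the range (5 libraries) or 0.625 (6 libraries). With so few libraries it misses all but wide gaps. For Fn1 the gap below bleomycin library 7 was 0.609 of the range.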

Additional observations from a re-analysis of the deposited data

How the results depend on the processing

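Spp1 and Fn1 kept their direction under every alternative run, and both kept their calls for bleomycin against control and treated against bleomycin, as Fn1 did for treated against control (25 alternatives each). Spp1 in treated against control (log2 1.71) lost its call in 8 of 25, all of them with control or treated libraries left out. The 25 include fits without a bleomycin library, a group not in this comparison, where the change stayed at 1.71. The Spp1 change was also 1.71 (edgeR adjusted p = 0.0775) without treated libraries 13 and 17 together, and leaving out single libraries gave 1.54 to 1.97. The log2 ratio difference between treated and control lungs, 0.96, lay between 0.72 and 1.22 with single libraries left out and passed in 2 of 20 alternatives. Those 20 include leaving out each bleomycin library, which could not change this difference because the test uses only the groups compared. The correlation in treated lungs, 0.926, was 0.766 without the 2 libraries farthest from the median of Spp1. The background counts moved more. Of all tested genes, 4163 were called in treated against bleomycin, and 1929 without treated libraries 13 and 17. Among treated libraries, those 2 lay nearest to the controls on the first principal component, at -13.4 and -11.6. In treated against control 1259 genes were called, and 2546 with limma voom using quality weights. Leaving out single libraries gave 794 to 1573 (794 without control library 2, 825 without control library 3, 821 without treated library 15). The causes were not tested. No paired analysis was possible because the labels record no pairing between libraries of different groups.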
